A study of Mus musculus with 12 samples.

Results

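Short intronic copies of transposable elements (TEs) are the subject here: every listed copy of at most 1000 bp that overlapped a GENCODE M21 gene on GRCm38 but no annotated exon on either strand. Of the 298593 copies listed in the TE table, 126483 (42.4%) met this description. The copies lay in the introns of 14975 genes, and 118916 of them overlapped a single gene, called the host gene below. Copy length ran from 11 to 1000 bp with a median of 318 bp, and the median distance to the nearest annotated exon was 2856 bp. On the annotation, 61.5% of the copies were oriented opposite to their host gene, 34.7% in the same direction, and 3.83% overlapped genes on both strands. The host gene was protein-coding for 88.6% of the copies and a lincRNA for 6.46%.

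RNA was sequenced from male germ cells isolated from the testes of newborn mice at postnatal day 0 (P0). All of the mice carried the Mvh-Venus transgene, a fluorescent reporter of germ cells. The 3 het libraries came from Morc1 (+/-) mice and the 3 KO libraries from Morc1 (-/-) mice, and no wild-type group was used. The labels do not say which part of Morc1 was deleted, nor whether the replicates of a genotype came from separate animals or pools, so that p-values measure only the spread between these libraries. Values are normalized counts, that is, reads divided by 1 size factor per library, and fold changes are KO over het on the log2(normalized count + 1) scale, which understates changes of weakly detected copies.

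TEs are repeated sequences that inserted copies of themselves across the genome, and many of the copies that remain lie in introns. When a gene is transcribed, its introns are copied into the primary transcript before splicing removes them, so that RNA reads on an intronic copy can come from unspliced host RNA or from a transcript of the element itself. Fetal and newborn male germ cells, called gonocytes at this stage, lose and regain DNA methylation while small RNAs and chromatin proteins keep TEs silent, and MORC1 is an ATPase of the MORC family that acts in this silencing. The library kit does not mark the strand of the RNA, so that orientation below is that of the annotation and not of the reads.

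A few of the copies overlap a window around the start of a transcript in RefSeq, and the sequences of 3 such start windows are printed. Neither of the copies that rose covers the start itself. Their windows hold only part of the copy, so that sequence, GC and CpG content describe flanking bases too. Each window runs from 250 bases before to 50 bases after the start on GRCm38.p6, is read 5′ to 3′ on the strand of the transcript, and comes from RefSeq. Capitals mark the bases that belong to the TE copy. The window of LOC108167564, a lncRNA in Ccdc7a (chr8:128753485-128753784, minus strand), holds 172 bases of a copy that was higher in KO. The window of the lncRNA Gm31336 in Ptprn2 (chr12:116757201-116757500, minus strand) holds the last 22 bases of another such copy. The window of Gm13261 (chr2:10365074-10365373), shown for contrast, lies wholly within a copy that did not pass the test.
LOC108167564: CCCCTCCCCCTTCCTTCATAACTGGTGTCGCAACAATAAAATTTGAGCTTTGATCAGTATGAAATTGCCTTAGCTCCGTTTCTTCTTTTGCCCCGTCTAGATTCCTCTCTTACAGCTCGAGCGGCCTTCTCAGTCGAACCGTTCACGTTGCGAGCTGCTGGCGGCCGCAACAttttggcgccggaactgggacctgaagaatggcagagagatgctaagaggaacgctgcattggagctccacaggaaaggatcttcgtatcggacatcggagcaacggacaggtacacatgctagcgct
Gm31336: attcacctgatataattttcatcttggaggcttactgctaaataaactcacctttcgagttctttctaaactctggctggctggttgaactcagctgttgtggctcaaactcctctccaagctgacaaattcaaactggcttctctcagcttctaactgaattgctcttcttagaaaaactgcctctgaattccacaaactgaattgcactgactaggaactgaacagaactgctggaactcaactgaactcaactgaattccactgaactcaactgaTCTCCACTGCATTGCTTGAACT
Gm13261: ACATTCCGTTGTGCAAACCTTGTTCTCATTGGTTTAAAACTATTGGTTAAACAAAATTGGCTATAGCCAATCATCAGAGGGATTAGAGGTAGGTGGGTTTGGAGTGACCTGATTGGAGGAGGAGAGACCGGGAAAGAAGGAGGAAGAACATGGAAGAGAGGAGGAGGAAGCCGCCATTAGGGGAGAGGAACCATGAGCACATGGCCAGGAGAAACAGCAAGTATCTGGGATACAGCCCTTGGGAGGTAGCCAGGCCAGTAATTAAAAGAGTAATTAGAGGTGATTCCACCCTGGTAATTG

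The copy at the LOC108167564 start (chromosome 8, 128753613 to 128753931, minus strand, 319 bp) lies 79 bp upstream of the start, in an intron of Ccdc7a. Its normalized counts were 2.11, 1.12 and 0.958 in the het libraries, in replicate order, against 21.0, 19.4 and 16.3 in the KO libraries. Every KO library lay above every het library, and the log2 fold change was 3.07 (SE 0.90, limma adjusted p 0.0365). The gene Ccdc7a had 45.8, 29.9 and 119 normalized counts in het against 190.0, 186 and 346 in KO, a log2 difference of 2.05 that did not pass the test (limma adjusted p 0.188). The window of LOC108167564 has a GC content of 52.3% and 19 CpG dinucleotides, against medians of 52.7% and 7 over all 32851 windows of 300 bases. AATAAA, the letters of the common polyadenylation signal, begins at base 35 of the window, within the copy. TGGCGCC, the opening letters of the primer-binding site for lysine tRNA in many retroviruses, begins at base 176, just past the end of the copy.

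The copy at the Gm31336 start (chromosome 12, 116756866 to 116757222, plus strand, 357 bp) lies 28 bp downstream of the start, in an intron of Ptprn2. It had 2.11, 0 and 0 normalized counts in the het libraries against 66.8, 10.1 and 23.1 in the KO libraries. KO replicate 1 was far above the other two, and the groups did not overlap (log2 fold change 4.17, SE 1.09, limma adjusted p 0.0221). This copy too reached the mean of 10 only through its KO counts, and fits without each library are not given for it. Ptprn2, a receptor-type tyrosine phosphatase-like protein of secretory granules, changed by 0.15 on the log2 scale. This window has a GC content of 41.7% and 1 CpG. The copy at Gm13261 (chromosome 2, 10364991 to 10365462) had 97.0, 88.6 and 36.4 normalized counts in the het libraries against 59.1, 29.4 and 62.4 in the KO libraries, so that the groups overlapped (log2 fold change -0.50, limma adjusted p 0.63). Its window has a GC content of 47.0% and 3 CpG.

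Each window was searched on both strands for 4 motifs. AATAAA was held by 19.6% of all windows and lies in the windows of LOC108167564 and Gm31336. The primer-binding letters TGGCGCC were held by 4.03% of all windows and lie in the window of LOC108167564. The TATA box letters TATAAA, which can share bases with the polyadenylation signal, were held by 13.6% of all windows, and the B box of RNA polymerase III promoters, searched as GTTCGANNC, by 0.843%. Neither of these is among the letters of the 3 windows printed. In all, 299 short intronic copies overlapped a RefSeq start window, and 60 of them could be tested. Both that were higher in KO are described above (3.33%, beside 1.74% of all tested short intronic copies and 15.6% of all tested TE copies), none was lower, and the median log2 fold change of the 60 was -0.18.

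Depth per library ran from 28363683 to 32816861 recovered reads on genes and from 1974504 to 3703419 on TE copies. Summed germ cell markers (8 genes, all detected, among them Ddx4 and Dazl) ranged from 126321 to 191196 normalized counts over the 6 libraries. Sertoli cell markers (7 genes) summed to 24359, 17536 and 37259 in the het libraries against 12581, 14562 and 18099 in the KO libraries. These sums overlapped, while Sox9, Amh and Clu of this list were lower in every KO library than in every het library. The 5 Leydig cell markers summed to 24921 in het replicate 3 and to between 510 and 1079 in the other 5 libraries. The part of the Sertoli and Leydig markers in the results was not tested, and values without het replicate 3 are given where they change a result.

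Summed over the class, the RNA on short intronic copies differed between the genotypes by less than the spread between libraries. Their reads came to 2.48, 2.18 and 2.99 per 100 gene reads in the het libraries, against 2.28, 3.53 and 2.35 in the KO libraries. KO replicate 2 was the highest of all and the other KO libraries lay within the het range, with means of 2.55 ± 0.407 and 2.72 ± 0.703 (SD, n = 3). The exact two-sided permutation test of the difference of 0.173 gave p = 0.8, where 3 against 3 libraries allow no p below 0.1. The difference was -0.232 without KO replicate 2 and -0.0106 without het replicate 2.

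The share of all TE reads that lay on short intronic copies was lower in every KO library. It was 37.9%, 36.3% and 34.3% in the het libraries against 25.5%, 27.1% and 25% in the KO libraries. The groups did not overlap, and the means of 36.2 ± 1.80% and 25.8 ± 1.07% (SD, n = 3) differed by -10.3 percentage points (p = 0.1 in the exact permutation test, the smallest value it can give). The total of TE reads was higher in every KO library, so that a lower share need not mean fewer reads on the class. Exonic copies up to 1000 bp also had lower shares, at 19.4%, 20.8% and 16.0% in het against 14.9%, 11.6% and 15.4% in KO. Intronic copies over 1000 bp went from 0.641 ± 0.253 in het to 1.22 ± 0.416 in KO, per 100 gene reads (SD, n = 3, exact permutation p = 0.1). The 287 short intronic copies later called higher came to 0.00456 ± 0.000765 reads for every 100 gene reads in het against 0.0574 ± 0.00946 in KO (SD, n = 3), a small part of the total of the class.

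**Figure D1:**
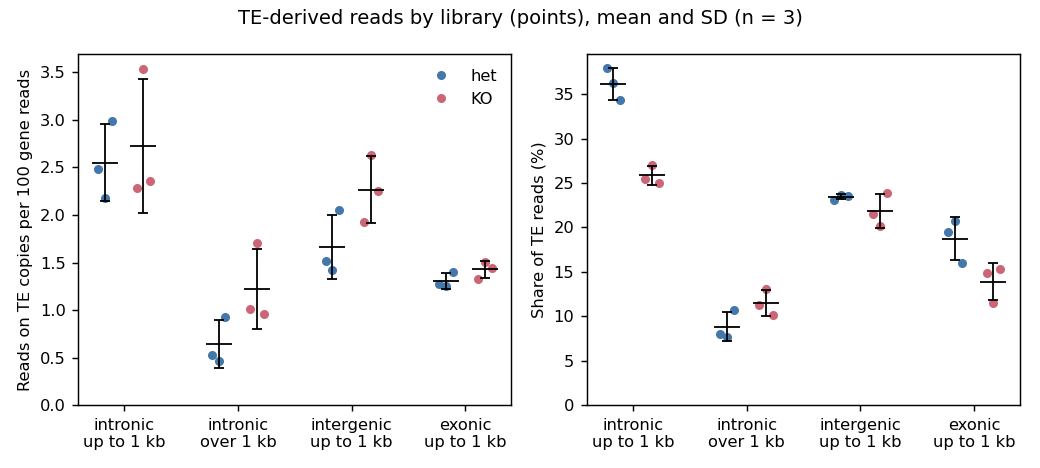
Reads on 4 classes of TE copies in each library, per 100 gene reads (left) and as a percentage of all TE reads (right), with points for the 3 het and 3 KO libraries and bars for the mean and SD. Short intronic copies overlap between genotypes on the left, where KO replicate 2 reaches 3.53, and are separated on the right, at 34.3% or more in het and 27.1% or less in KO.

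Copy by copy, few short intronic copies passed the test, and in the main fit most of those that did rose. The filter uses the mean over both genotypes, so that a copy could pass it through the genotype where it is high. The balance of rises and falls depended on this and on the scaling, as given below. Of 16505 copies with a mean of at least 10 normalized counts, 287 (1.74%) rose in KO and 72 (0.436%) fell at a limma adjusted p under 0.05, in a fit over all 49781 TE copies that reached this mean. Over all of these copies the percentages were 15.6 for higher and 0.735 for lower. Intronic copies over 1000 bp were called higher in 24.3% of 5777 tested, intergenic copies of at most 1000 bp in 10.9% of 10393, and exonic ones in 1.61% of 6131. The differences between these classes were not tested. The other 109978 short intronic copies did not reach this mean. With no such filter, 435 of all 126483 were higher and 141 lower, 0.344% and 0.111% against 2.99% and 0.207% of all listed copies. The tested copies held 47.9% of the reads of the class, and every listed copy had at least 10 reads over the 6 libraries.

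The median log2 fold change of the tested short intronic copies was -0.25, and that of all tested copies 0.028. Scaling by the size factors of the gene table raised both, to 0.061 and 0.34, so that the sign of the class median depends on the scaling. On the gene scale 375 copies were called higher, including all 287, and 39 lower. Of the calls, 79.9% were thus higher on the deposited scale and 90.6% on the gene scale, but 41.8% (181 higher and 252 lower) after quantile normalization. The edgeR quasi-likelihood test on recovered reads called 232 of the 287 and 59 of the 72.

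In all 287 copies called higher, every KO library lay above every het library, which also held for 4.41% of all tested short intronic copies and 22.8% of all tested TE copies. In all 72 called lower every KO library lay below, as in 7.97% of tested short intronic copies and 7.58% of all tested copies. Over the copies called higher the median rise was 3.64 on the log2 scale, or 3.40 with the 31 copies that had no het read placed at the lower bound that 3 reads per library allow. The median of the 72 copies called lower was -2.61. Most of the calls concern copies with a mean under 10 in 1 genotype: among the 11432 copies with a mean of at least 10 in both genotypes, 35 (0.306%) rose and 30 (0.262%) fell, against 8.58% and 0.512% of all 31255 such TE copies. The number called higher was 137 without KO replicate 1, 177 without KO replicate 2 and 185 without KO replicate 3. The number called lower was 16 without het replicate 1, 21 without het replicate 2 and 36 without KO replicate 3.

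On the log2(normalized count + 1) scale the largest rise was that of a copy in Gm16332 (ENSMUSG00000089991), an unprocessed pseudogene, on the plus strand of chromosome 1 from 139867425 to 139868418. Its het libraries held no read, against normalized counts of 77.3, 89.0 and 125 in the KO libraries, at least 31.0-fold higher in KO against 3 reads per library (limma adjusted p 0.000398). The rank depends on the pseudocount: with 10 in place of 1 the log2 fold change was 3.40, below those of the copies in Nfib (3.86), Ano4 (3.85) and Mei4 (3.84). A copy over 1000 bp that was also higher in KO, 1446 bp long, lay 1596 bp downstream of the copy in Gm16332 on the same strand. The host gene was itself barely detected, at 1.62 ± 2.03 normalized counts in het and 15 ± 6.94 in KO (SD, n = 3). A copy in Adgrl3, an adhesion G protein-coupled receptor, was also without het reads. It lies on chromosome 5 from 81823117 to 81823949 and had 46.7, 91.3 and 78.7 normalized counts in the KO libraries, at least 23.0-fold higher (limma adjusted p 0.000669). Adgrl3 as a gene had 454 ± 40.7 normalized counts in het and 382 ± 56.6 in KO (SD, n = 3), a log2 difference of -0.26 that did not pass the test.

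Oxct1, the mitochondrial enzyme that starts the use of ketone bodies, was well expressed in these cells, at 6854 ± 1636 normalized counts in het and 7242 ± 1047 in KO (SD, n = 3). A 233 bp copy in its intron (chromosome 15, 4127130 to 4127362) had 0, 0 and 1.92 normalized counts in the het libraries against 79.2, 29.4 and 84.7 in the KO libraries. The groups were far apart (log2 fold change 5.38, SE 0.85, limma adjusted p 0.00153) while the gene changed by 0.095. In Ano4, a member of the anoctamin family of membrane proteins, a 318 bp copy (chromosome 10, 89170961 to 89171278) had 5.27, 2.24 and 0 against 222, 116 and 182 normalized counts. This copy rose by 5.95 on the log2 scale (SE 0.70, limma adjusted p 0.000481), and 2 other short copies of Ano4 rose with it. Ano4 itself was at 280 ± 46.8 in het and 605 ± 101 in KO (SD, n = 3), a log2 change of 1.11 that did not pass the test (limma adjusted p 0.161).

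In Fam172a, a 389 bp copy that begins 77 bp from an exon (chromosome 13, 77724244 to 77724632) had 3.16, 0 and 0 normalized counts in het against 65.8, 84.4 and 137 in KO (log2 fold change 5.84, limma adjusted p 0.000728). In Gm27224, a lincRNA, the copy and the gene rose together. The copy (chromosome 9, 80805480 to 80806271) had 6.33, 0 and 0 normalized counts in het against 124, 73.5 and 103 in KO, a log2 change of 5.67 (limma adjusted p 0.00109). The gene changed by 5.07 (limma adjusted p 0.0251), a call lost on leaving out any KO library (adjusted p of 0.115 to 0.218). Relative to the gene the copy differed by 0.86, which did not pass the test. Copies in Gm6367 (chromosome 5, 95005641 to 95006469) and Gm6205 (chromosome 5, 94665493 to 94666224) rose by 5.96 and 5.39 and showed the widest spread, at 84.9, 196 and 29.1 and at 66.8, 132 and 16.3 in the KO libraries. Their host genes were not matched to values in the gene table, and how reads were split between near-identical copies there is uncertain.

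**Figure D2:**
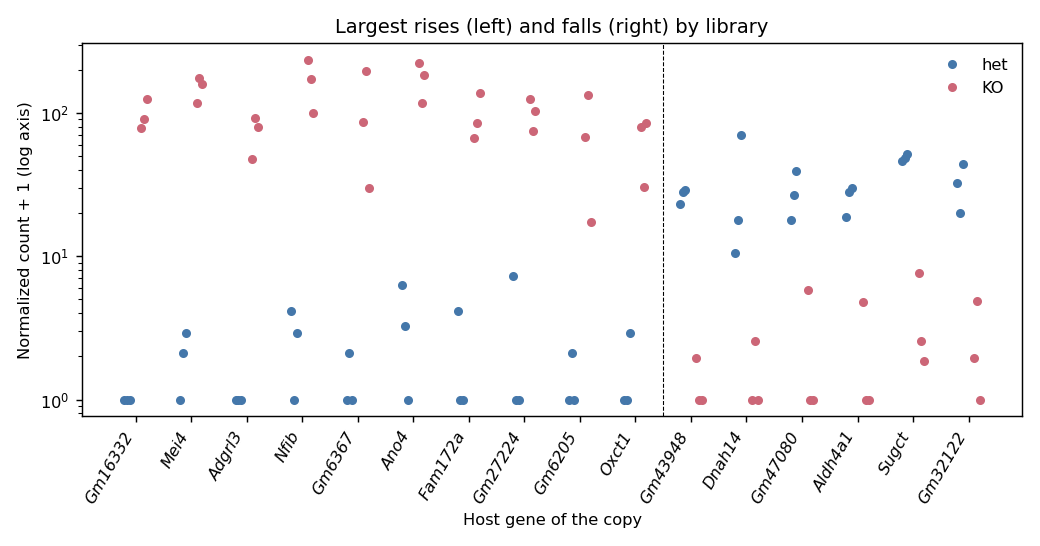
Normalized counts (plus 1, log axis) in each of the 6 libraries for the 10 largest rises (left of the dashed line) and 6 largest falls (right), at most 1 copy per host gene. For each rise every KO point lies above every het point, and for each fall every KO point lies below, as the choice of these copies required.

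Copies called higher came alone or in groups within a gene. Of the 287, 132 were alone in their host gene and 155 lay in 51 genes with 2 or more. Tested copies share host genes in general: the 16120 with a tested host gene lay in 5954 genes. The grouping was not tested against this background, and adjoining copies are counted separately. Mei4 (ENSMUSG00000043289), whose protein is needed to form meiotic DNA double-strand breaks, held 9 called among 13 tested and 82 listed. These 9 copies span 123167 bp of chromosome 9, where Mei4 lies on the plus strand, between 200 and 323 kb from the start of the gene, and rose by 4.79 to 6.33 on the log2 scale. The highest of them, a 137 bp copy from 82066534 to 82066670, had normalized counts of 0, 1.12 and 1.92 in the het libraries against 115, 175 and 157 in the KO libraries. It rose by 6.33 (SE 0.62, limma adjusted p 0.000398), and a copy of 2581 bp that also rose lies 137 bp away on the same strand.

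The gene itself did not pass the test. Mei4 as a gene had 245, 252 and 114 normalized counts in the het libraries against 160, 208 and 176 in the KO libraries, so that the groups overlapped (log2 fold change -0.088, limma adjusted p 0.984). Summed over the 66 short copies listed within the span, the het libraries had 36.9, 28.0 and 17.3 normalized counts and the KO libraries 997, 1535 and 823. The 16 short copies of Mei4 outside the span summed to 54.8, 71.8 and 46.0 in het, against 110, 87.5 and 65.9 in KO. The span was set by the copies called higher, so that the sums within and outside it are a description. Mei4 also holds 11 copies over 1000 bp that were called higher, at log2 fold changes of 2.52 to 5.96.

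**Figure D3:**
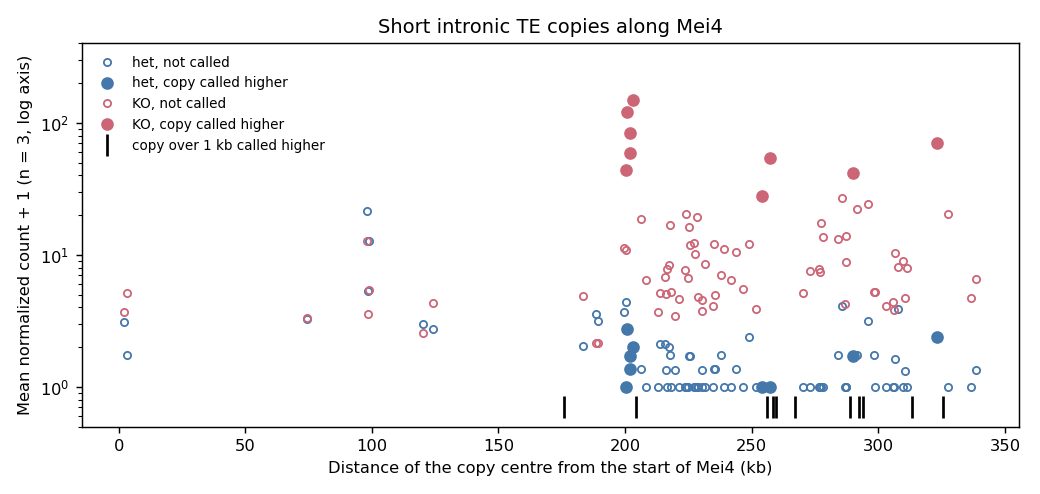
Mean normalized counts plus 1 (n = 3 libraries per genotype, log axis) of each short intronic copy of Mei4 by distance from the start of the gene in kb. Filled points mark the 9 copies called higher, between 200 and 323 kb, and black ticks the 11 called copies over 1000 bp.

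Nfib, a transcription factor of the nuclear factor I family, showed a tighter group. All 5 of its tested short copies, out of 27 listed, lie within 2188 bp of chromosome 4 from 82672452 to 82674639 and rose by 4.19 to 6.12 on the log2 scale. The largest (82673534 to 82674229, 696 bp) had 3.16, 0 and 1.92 normalized counts in the het libraries against 232, 173 and 99.2 in the KO libraries (log2 fold change 6.12, SE 0.67, limma adjusted p 0.000398). The 6 copies listed in this stretch are all on the plus strand and lie end to end or nearly so, and are thus not independent. Whether they are pieces of 1 element or 1 transcript was not tested. Together they summed to 3.16, 3.37 and 5.75 in het, against 523, 328 and 250.6 in KO. The 21 copies elsewhere in Nfib summed to 65.4, 65.1 and 95.8 in het, against 50.6, 63.5 and 54.7 in KO. The stretch was set by the copies called higher, and none of the copies outside it could be tested. Nfib as a gene was at 1951 ± 358 in het and 2122 ± 739.5 in KO (SD, n = 3), a log2 change of 0.083. Rgs6, a regulator of G protein signalling, had 4 called among 11 tested, all within 2297 bp, at log2 fold changes of 2.57 to 4.10 with the gene at -0.16.

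In other genes many copies rose along with the gene. Cdh12, a cadherin, had 9 called among 18 tested copies, spread over 821408 bp, at log2 fold changes of 2.61 to 5.35. The gene itself had 34.3, 42.5 and 18.5 normalized counts in the het libraries against 667, 1079 and 1104 in the KO libraries, a rise of 4.90 (limma adjusted p 0.000577). Tmc2, a transmembrane channel-like protein of hair cell mechanotransduction, had 9 called among 10 tested copies at 2.92 to 4.79. Its gene level went from 73.4, 35.7 and 55.6 to 1252, 1870 and 1908, a rise of 4.94 (limma adjusted p 0.000285). In both genes the groups were far apart for the gene as for its copies.

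Further genes with 4 or more called copies were Gm15614, Atp13a5, 4931428L18Rik, Fam3b, Gm32647, Pcdh15, Slco1a5 and Tlr4. Atp13a5, a P-type ATPase, had all 5 of its tested copies called, at 4.13 to 5.10, with the gene at 1.37 (limma adjusted p 0.238). Pcdh15, a protocadherin, had 4 of 7 called within 11400 bp, with the gene at 0.89 (limma adjusted p 0.257). Tlr4, the receptor for lipopolysaccharide, had 4 of 5 called, with the gene at 0.59 (limma adjusted p 0.898).

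The host gene was measured beside each copy as a rough guide to the amount of unspliced host RNA. How closely the gene count follows unspliced RNA was not tested. Over the tested copies with a tested host gene, copy level per kb and gene level correlated at a Spearman rho of 0.18. Of the 5954 host genes that could be tested, 39 (0.655%) were higher in KO and 4 lower, against 0.431 and 0.0423 percent of all 26005 tested genes. The number of host genes called higher was 22 without het replicate 1, 12 without KO replicate 1, 23 without KO replicate 2 and 8 without KO replicate 3. Of the 287 copies called higher, 254 had a host gene that could be tested. The median log2 fold change of that host gene, counted per copy, was 0.89 (quartiles 0.083 and 2.02), 48 of the copies lay in a gene called higher, and for 90 the gene had changed by less than 0.5. Such a small host change held for 13708 of all 16120 tested copies with a tested host gene. Across the 16120 tested copies with a tested host gene, the log2 fold changes of copy and host gene correlated at a Spearman rho of 0.171 and a Pearson r of 0.328. Copies in a gene share that gene's value and all copies share the libraries, so that they are not independent.

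The share of copies called higher was then counted by the change of the host gene. Among 13708 copies whose host gene changed by less than 0.5 on the log2 scale, 0.657% were called higher. The share was 3.50% of 1058 copies at a host change of 0.5 to 1, 13.2% of 340 copies at 1 to 2, and 47.9% of 144 copies over 2. Where the host gene was higher in KO, a copy could reach the mean of 10 through its KO counts. These shares of tested copies are therefore a description. On the other side, 1.42% of 706 copies were called higher and 0.85% lower where the host gene was at -1 to -0.5, and 1.83% of 164 were called higher (3 copies) and 6.10% lower (10 copies) where it was under -1. Both shares of higher calls lay above that of the copies whose host gene changed little. Without KO replicate 1, the library whose removal lowered these shares most, they were 0.285%, 1.61%, 6.47% and 27.8%, with 0.142% at -1 to -0.5 and 0.61% under -1, and the order from 0.5 upwards held without each of the 6 libraries in turn. By level, 10.8% of 204 copies in genes with a mean under 10 normalized counts were called higher, 6.22% of 1189 copies in genes at 10 to 100, and 0.415% of 9629 copies in genes over 1000.

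**Figure D4:**
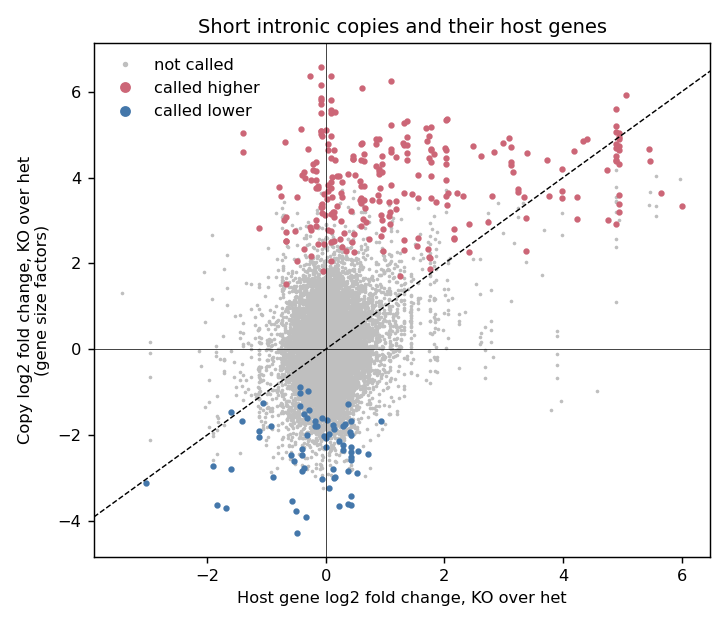
Log2 fold change (KO over het) of each tested short intronic copy, on the scale of the gene size factors, against that of its host gene. The dashed line marks equal change: the copies called higher (red) include a column near a host change of 0, with Mei4 and Nfib, and a group near a host change of 5, with Cdh12 and Tmc2, while those called lower (blue) lie mostly at host changes between -2 and 1.

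When each copy was tested relative to its host gene, as the log2 ratio of copy to gene, 62 of 15057 short intronic copies (0.412%) rose and 11 (0.0731%) fell. The background over the 20070 intronic copies of any length in this fit was 3.23 and 0.0997 percent. The median relative change was 0.0079 for short copies and 0.064 for all. The 62 copies lay in 44 genes, 57 of them were among the 287 above, and for 37 the host gene had changed by less than 0.5. Among all 16120 tested short copies with a tested host gene, 13708 had such a small host change. The number rising relative to the gene was 23 without het replicate 1, 23 without het replicate 2, 22 without KO replicate 1, 23 without KO replicate 2 and 40 without KO replicate 3. The number falling was 4, 4, 3 and 5 without het replicates 1 and 2 and KO replicates 1 and 3.

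The largest relative rises were those in Mei4 (6.67, limma adjusted p 0.00281), Adgrl3 (6.62, adjusted p 0.00415), Slc22a14, Nfib (6.28, adjusted p 0.00281) and Oxct1 (5.49, adjusted p 0.00536). In Slc22a14, a solute carrier, a 411 bp copy (chromosome 9, 119210002 to 119210412) had 1.05, 0 and 0 normalized counts in het against 88.7, 21.7 and 21.4 in KO. KO replicate 1 was far above the other KO libraries, and the copy rose by 6.45 relative to the gene (limma adjusted p 0.0103). Leaving out het replicate 1, het replicate 2 or KO replicate 1 ended this call, with limma adjusted p-values of 0.0578, 0.0684 and 0.0614.

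In all of the 5 largest relative falls but that in Sugct, the gene was higher in every KO library while the copy was lower in every KO library. Apoh, which encodes a lipid-binding plasma protein, had 74.4, 103 and 76.1 normalized counts in the het libraries against 2212, 1929 and 1924 in the KO libraries, a rise of 4.58 (limma adjusted p 6.55e-05). A 342 bp copy in its intron (chromosome 11, 108345470 to 108345811) had 24.3, 41.5 and 44.1 in het against 14.3, 12.4 and 15.4 in KO. The copy alone did not pass the test (log2 fold change -1.28, limma adjusted p 0.127), and relative to Apoh it fell by 5.54 (adjusted p 0.00275).

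A230004M16Rik, a processed transcript, was at 4.77, 3.86 and 12.7 normalized counts in het against 109, 78.5 and 117 in KO, a log2 change of 3.8 (limma adjusted p 0.0222, lost without each library but het replicate 3). Its 816 bp copy (chromosome 11, 41810423 to 41811238) was at 19.0, 12.3 and 21.1 against 3.82, 4.64 and 5.13, with no call for the copy alone (limma adjusted p 0.151), and fell by 5.22 relative to the gene (limma adjusted p 0.00579). In Gm37381, a lincRNA on chromosome 1, the relative fall was 4.57 (limma adjusted p 0.00874, or 0.0630 without KO replicate 1). There neither the copy alone (log2 fold change -0.98, limma adjusted p 0.234) nor the gene (3.91, adjusted p 0.123) passed the test.

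The largest falls of copies were smaller than the largest rises and rested on fewer counts. A 113 bp copy in Gm43948 and Gm43950 (chromosome 6, 101059948 to 101060060) had 22.1, 26.9 and 27.8 normalized counts in the het libraries against 0.954, 0 and 0 in the KO libraries (log2 fold change -4.41, SE 1.01, limma adjusted p 0.0112). In Dnah14, an axonemal dynein heavy chain, a 785 bp copy (chromosome 1, 181729332 to 181730116) had 9.49, 16.8 and 69.0 against 0, 1.55 and 0. Het replicate 3 was well above the other het libraries there (log2 fold change -4.11, limma adjusted p 0.0290). Copies in the lincRNA Gm47080 (chromosome 12, 81840735 to 81841481) and in Aldh4a1, an enzyme of proline breakdown (chromosome 4, 139628744 to 139629115), both changed by -3.89 (limma adjusted p 0.0229 and 0.0224). The calls in Gm43948, Dnah14, Gm47080, Aldh4a1 and Gm32122 were each lost on leaving out any of the 3 het libraries, at limma adjusted p-values from 0.0719 to 0.335. Those in Dnah14 without KO replicate 1 (adjusted p 0.0585) and in Gm47080 without KO replicate 2 (0.0530) or 3 (0.0513) were lost too.

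Gm32122 was the only host of these 6 whose gene was called lower. The genes Gm43948, Dnah14 and Aldh4a1 were at -0.48, -0.33 and -0.51 on the log2 scale without a call, and Gm47080 had no gene value. The lincRNA had 322, 267 and 489 normalized counts in the het libraries against 90.0, 120 and 83.3 in the KO libraries (log2 fold change -1.84, limma adjusted p 0.0493, lost without each library in turn). Its 238 bp copy (chromosome 8, 96389068 to 96389305) had 31.6, 19.1 and 43.1 against 0.954, 3.87 and 0 (log2 fold change -3.86, limma adjusted p 0.0129). Of all 72 copies called lower, 68 had a host gene that could be tested, with a median change of -0.071. For 48 of the 68 the host gene was within 0.5 of no change, against 13708 of all 16120 tested copies with a tested host gene. Only 1 lay in a gene called lower.

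Sugct (ENSMUSG00000055137), a transferase that makes glutaryl-CoA, held the largest group of falls, 8 of 30 tested copies within 5501 bp of chromosome 13 from 17520071 to 17525571. The largest fall among them was that of a 298 bp copy (17522364 to 17522661), with 45.4, 47.1 and 50.8 normalized counts in the het libraries against 6.68, 1.55 and 0.855 in the KO libraries. Het libraries agreed closely and lay far above the KO libraries (log2 fold change -3.88, SE 0.72, limma adjusted p 0.00375). The most abundant of the 8, 532 bp long (17521284 to 17521815), had 616, 479 and 377 against 86.8, 89.0 and 62.4 (log2 fold change -2.60, limma adjusted p 0.000835). Sugct as a gene had 106 ± 37.1 normalized counts in het and 145 ± 58.9 in KO (SD, n = 3), with no call. Relative to the gene the 298 bp copy fell by 4.06 (limma adjusted p 0.0193), a call lost without het replicate 1, het replicate 2, KO replicate 2 or KO replicate 3 (adjusted p 0.0617 to 0.0907).

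In Stpg2, a 480 bp copy (chromosome 3, 139489795 to 139490274) had 31.6, 26.9 and 110 normalized counts in het against 9.54, 3.87 and 1.71 in KO, a fall of 3.17 on the log2 scale (limma adjusted p 0.0136). This call was lost without het replicate 3 (adjusted p 0.0570) or KO replicate 3 (adjusted p 0.0510), and the fall relative to the gene (3.42, adjusted p 0.0430) was lost without each of the 6 libraries. Further genes with 2 or more called falls were 4930554G24Rik (3 of 5 tested), Gm12865 (3 of 7), Hs6st3 (2 of 27), Map3k13 (2 of 7) and Olah (2 of 4).

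Longer copies were called higher more often. The share was 0.655% of 2291 tested copies up to 150 bp, 1.09% of 2301 over 150 and up to 250 bp, 1.75% of 7710 over 250 and up to 500 bp and 2.66% of 4203 over 500 bp. The shares called lower were 0.393%, 0.435%, 0.402% and 0.523%. Without KO replicate 1 the shares called higher were 0.349%, 0.608%, 0.726% and 1.40%, and their order held without each of the 6 libraries. It did not hold among copies with a mean of at least 50, at 3.19% of 94, 0% of 100, 3.5% of 429 and 5.11% of 313. By orientation, 1.76% of 10129 copies opposite to the host gene and 1.82% of 5707 copies in the same direction were called higher.

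Calls were also counted by the long copies nearby. The long copies called higher come from the same fit and libraries as the short ones, so that the shares near them are a description. Of 255 short copies with a called higher copy over 1000 bp within 10 kb on the same strand, 60 (23.5%) were called higher, and of 100 with such a copy on the opposite strand only, 15 of the 100. Among the 16150 copies with none nearby, 212 (1.31%) were higher, and these also held all 72 that were lower. A listed copy over 5000 bp within 10 kb went with 6.92% of 491 copies on the same strand and 5.45% of 312 on the opposite strand, against 1.5% of 15702 without. Without KO replicate 1 the shares near a called long copy were 16.5% and 10%, and 0.526% elsewhere, and those near a listed copy over 5000 bp were 3.26% and 2.24%, and 0.726% elsewhere. The share near a listed copy on the same strand was above that on the opposite strand in 3 of the 6 fits that left out a library. Most rises, 212 of 287, thus had no called long copy within 10 kb.

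By host type, 51 of 789 copies in lincRNA genes (6.46%) were called higher and 16 (2.03%) lower, against 1.43% and 0.353% of 15014 copies in protein-coding genes. Without KO replicate 1 the shares called higher were 3.30% and 0.673%. Copies over 10000 bp from an exon were called higher in 2.95% of 2984, and copies within 300 bp of an exon in 1.37% of 1819. These classes overlap, since a copy can be long, distant from exons and in a lincRNA together, and no class was tested against another.

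**Figure D5:**
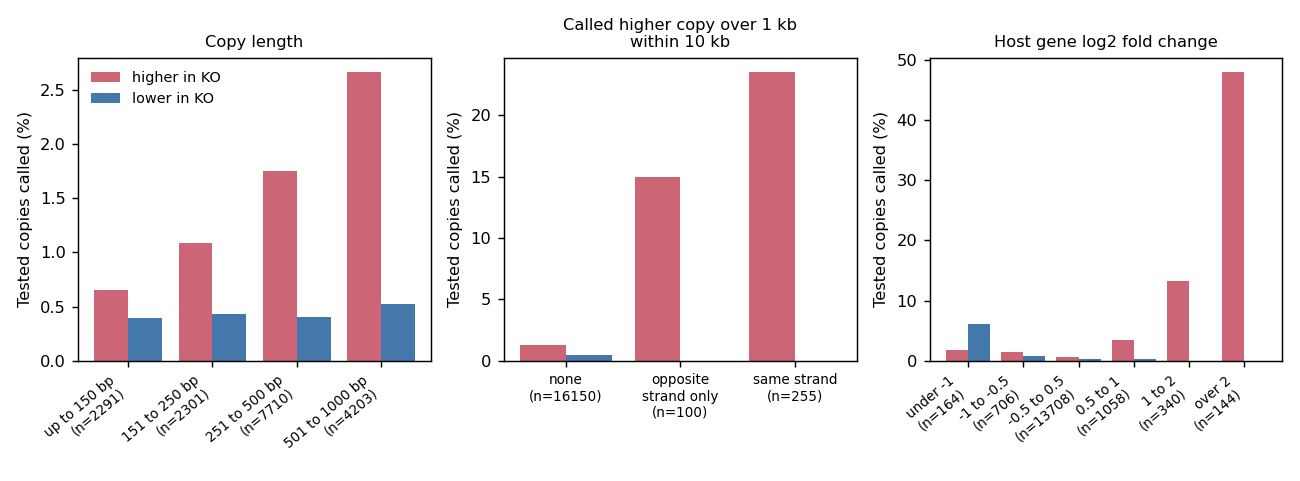
Percentage of tested short intronic copies called higher (red) or lower (blue) in KO by copy length, by the presence of a called higher copy over 1000 bp within 10 kb, and by the log2 fold change of the host gene, with the number of tested copies under each bar. The red bars rise from 0.655% to 2.66% with length, from 1.31% to 23.5% with a nearby long copy, and reach 47.9% where the host gene was higher by over 2.

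The targeted gene offers a case where the host RNA itself differs. Morc1 (ENSMUSG00000022652) had 7248, 7485 and 4126 normalized counts in the het libraries against 1360, 1343 and 1794 in the KO libraries, a fall of 2.03 on the log2 scale (limma adjusted p 0.0109). Leaving out het replicate 1, KO replicate 1 or KO replicate 3 ended this call (adjusted p 0.0511, 0.101 and 0.0663). Its 30 short intronic copies together had 177, 171 and 211 reads in the het libraries against 49, 51 and 98 in the KO libraries, and 19 of them had no KO read. The copies as a group were thus lower in every KO library, as the gene was.

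Only 2 copies in Morc1 could be tested. The 928 bp copy (chromosome 16, 48540487 to 48541414) had 8.44, 5.61 and 47.0 normalized counts in het against 0, 11.6 and 6.84 in KO, and did not pass the test (log2 fold change -1.64, limma adjusted p 0.453). The 108 bp copy (chromosome 16, 48629919 to 48630026) lies 679 bp from an exon and had 32.7, 23.6 and 8.63 against 14.3, 19.4 and 47.9 (log2 fold change 0.31, limma adjusted p 0.843). The groups overlapped for both. Relative to Morc1 the 108 bp copy was higher by 2.66 (limma adjusted p 0.0404), a call lost without each of the 6 libraries.

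Short intronic copies in genes of the TE silencing machinery were looked at as a list. Of 31 such genes (piRNA pathway, DNA methylation and H3K9 methylation), 28 held 328 listed copies, of which 68 in 20 genes were tested. None was called higher or lower by limma, with 1 at an unadjusted p under 0.05, and their log2 fold changes ran from -2.10 to 2.33. Of all tested short intronic copies 1.74% were called higher and 0.436% lower, so that 68 copies are too few to tell the list from the rest. Relative to the host gene 1 of them was higher, the 108 bp copy in Morc1. The median was -0.34, or -0.031 on the gene scale, beside -0.25 and 0.061 of all tested short intronic copies. Tdrd9, a helicase of the piRNA pathway, held 18 of the 68 with a median of -0.85, or -0.54 on the gene scale. Mov10l1, the helicase that starts piRNA production, held 10 with a median of -0.36, or -0.050 on the gene scale. The gene Mov10l1 was at 0.95. The list was chosen for its function, and Morc1 is one of its genes.

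None of the 5 most abundant short intronic copies, at most 1 per host gene, passed the test. A 59 bp copy in Meikin, a kinetochore protein of meiosis, lies 326 bp from an exon (chromosome 11, 54402293 to 54402351) and had 1619, 1613 and 1409 normalized counts in het against 1321, 940 and 1701 in KO. The groups overlapped (log2 fold change -0.27, limma adjusted p 0.742), and Meikin as a gene was at 281 ± 16.2 in het and 268 ± 74.6 in KO (SD, n = 3). A 795 bp copy in Rab5a, a GTPase of early endosomes (chromosome 17, 53501768 to 53502562), had 662, 451 and 99.7 against 541, 231 and 863 and varied as much within a genotype as between them (log2 fold change 0.62, limma adjusted p 0.662).

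Copies in Stip1, a co-chaperone of heat shock proteins (chromosome 19, 7023008 to 7023574), and in Osbpl9, a lipid transfer protein (chromosome 4, 109070029 to 109070373), changed by -0.12 and 0.50 (limma adjusted p 0.927 and 0.632). The copy in the overlapping lincRNAs Gm12865 and Gm12861 (chromosome 4, 118995440 to 118996413) had 989, 686 and 310 normalized counts in het against 336, 213 and 194 in KO. The lowest het library lay below the highest KO library, and the limma test was not passed (log2 fold change -1.31, adjusted p 0.0764). This copy did pass in 7 of the alternative settings and not in 9. It passed with edgeR (adjusted p 0.0409) and without het replicate 3 (limma adjusted p 0.00725), among others. In Gm12865, 3 shorter copies were called lower.

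The limit of 1000 bp is a convention. Just inside it, the tested copies in Orc4 (1000 bp), Ppp2r2b (1000 bp) and Mctp1 (999 bp) had log2 fold changes of -1.77, -1.76 and 1.54. Just outside it, the shortest tested longer copies, in Zfp97, Kansl1 and 4732471J01Rik, had -1.11, -0.24 and -0.084. None of these 6 was called.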

How the data were processed

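RNA-seq libraries of sorted male germ cells at P0, 3 het and 3 KO, were compared, and the 6 P3 samples (postnatal day 3) were not analysed here. Per the submitters' processing notes, bcl2fastq 2.20, cutadapt 1.18, HISAT2 2.1.0, featureCounts 1.5.2 and DESeq2 1.26.0 were used with mm10 (GRCm38). The repeat annotation, the strand setting and the handling of reads that match several places are not given in the sources used here. How reads that match several copies were assigned can move counts between near-identical copies. The deposited tables hold a signal, counts that the authors divided by 1 size factor per library. Whole reads were recovered from the steps of these values (100% of values whole within 0.01). In KO replicate 1 of the gene table the step is close to 1. The TE table names no family.

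Positions were intersected with GENCODE M21 using bedtools 2.31.1. All copies with a mean of at least 10 were fitted with limma 3.58.1 in R 4.3.3 (eBayes with trend, two-sided, pseudocount 1, Benjamini-Hochberg adjustment over all copies, threshold 0.05). Genes were fitted likewise. The host-relative fit used log2(copy + 1) minus log2(host + 1) with gene size factors, for intronic copies with 1 host gene. Single values were compared by exact permutation tests. Alternatives included edgeR 4.0.16, DESeq2 1.42.0, other scalings, pseudocounts and filters, and leaving out each library; fits without a library leave 2 in a genotype, which are assumed to vary like the others. Host genes, named copies relative to their hosts and class shares were refitted without each library as alternatives chosen after seeing the data. The fit was tested on simulated data.

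The members, lists and tests were chosen with earlier results of these data known. Named copies are the 10 largest called rises and 6 largest falls with separated groups, the 5 largest in each direction relative to the host gene, the 5 most abundant (each at most 1 per host gene), the tested copies in Morc1 and 3 copies on each side of the length limit; genes with several called copies, and copies at RefSeq starts, were named after their values were seen. The same replicate numbers in het and KO are shared labels only: deviations of same-numbered libraries correlated at 0.146, -0.243 and -0.117. Sequence features of whole copies (GC content, repeat ends, kin among copies) were planned but not made, because only RefSeq start windows were used here. Reads carry no molecular identifiers, so that floors of 3 reads cover counting error only.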

Additional observations from a re-analysis of the deposited data

How the results depend on the processing

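The counts of short intronic copies called higher (287) and lower (72) depended on the settings. With quantile normalization they were 181 and 252, with a pseudocount of 0.1 178 and 40, without a filter on the mean 435 and 141, and with a mean of at least 50 34 and 24. Lower calls numbered 39 with gene size factors, 135 with a pseudocount of 10 and 198 with DESeq2. Copies up to 500 bp gave 175 higher. The edgeR test gave 244 and 71. Leaving out each library gave 137 to 340 higher and 16 to 94 lower.

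Relative to the host gene, the counts of 62 higher and 11 lower became 29 and 4 with a pseudocount of 0.1, 167 and 116 without a filter and 25 and 6 with a mean of at least 50. Higher calls numbered 37 with TE size factors, and lower calls 44 with a pseudocount of 10 and 5 without trend. Leaving out each library gave 22 to 81 and 3 to 12. Host genes called higher (39) ranged from 8 to 35. With the replicate number as a block, 216 copies were higher and 47 lower, 31 and 9 relative to the host gene, and 26 host genes higher. The numbers do not pair the samples, and the het and KO libraries did not correlate best with their own number in each case.

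The difference in reads per 100 gene reads (0.173) ranged from -0.232 to 0.393 without each library and was -24.4 with TE reads outside introns as the denominator (per 100 such reads). The difference in the share of TE reads stayed between -11.2 and -9.43. No host gene held over 1% of the reads of the class (largest 0.412%), so that leaving out such genes changed nothing.

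Over the named copies, 471 comparisons with an alternative kept direction and call, 25 lost the call, 9 gained it and 16 changed sign, all 16 among copies with no call. With gene size factors, Meikin was at 0.067, Stip1 at 0.21, Kansl1 at 0.078 and 4732471J01Rik at 0.22. With quantile normalization the 108 bp copy in Morc1 was at -0.13. Without each library in turn Rab5a ranged from -0.20 to 1.16, Stip1 from -0.71 to 0.19, Osbpl9 from -0.031 to 0.85, the Morc1 copy from -0.21 to 0.69, Kansl1 from -0.69 to 0.35 and 4732471J01Rik from -0.51 to 0.37. The cause of these changes was not tested. Depth limits the weakly covered copies: 109978 of 126483 did not reach the mean of 10.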

Other observations

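By chromosome, the share of tested short intronic copies called higher was largest on chromosome 15 (17 of 608, 2.8%, with 9 of the 17 in Cdh12), close to chromosomes 4 (2.6%) and 10 (2.58%), and, among the autosomes, smallest on chromosome 18 (3 of 512, 0.586%). On the X chromosome 4 of 354 were called higher (1.13%) and none lower, and none of 10 on the Y chromosome was called. No copy on chromosome 7 was called lower among 954 tested, while 11 of 850 on chromosome 13 were, 8 of them in Sugct. Chromosomes were not tested against each other.

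Short intronic copies in genes with a mean under 10 normalized counts had 0.0710 ± 0.0164 reads per 100 gene reads in het libraries and 0.0923 ± 0.0185 in KO libraries (SD, n = 3, exact two-sided permutation p = 0.2). Those in genes with a mean of at least 1000 had 1.35 ± 0.153 and 1.41 ± 0.372 (SD, n = 3, exact permutation p = 0.9). Copies over 500 bp had 0.578 ± 0.115 and 0.643 ± 0.193 (SD, n = 3, exact permutation p = 0.7), and copies up to 150 bp 0.441 ± 0.0643 and 0.452 ± 0.101 (SD, n = 3, exact permutation p = 0.8). None of these 4 differences passed its test, and no p below 0.1 was possible.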
